A study of Mus musculus with 35 samples.

Results

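Liver miRNAs were measured 3 days after a single injection of N-ethyl-N-nitrosourea (ENU), a mutagen that adds ethyl groups to DNA. The members are the 5 arrays labelled ENU day 3, of 35 arrays in the series, each from the liver of a different mouse, and they were compared with the 7 arrays labelled DMSO. All 12 mice were 6-month-old female Big Blue transgenic mice, which carry a bacterial reporter for mutations in every cell. The 5 treated mice received 120 mg/kg ENU by the intraperitoneal route and were killed on post-treatment day (PTD) 3. The 7 control mice received only the solvent DMSO, and their labels place 3 on day 1 and 4 on day 30, so that no control was taken on day 3. ENU groups of PTD 1 and PTD 7, with 5 mice each, served as neighbours in time.

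A miRNA is a short RNA that guides a silencing complex to mRNAs. It finds them mainly through its seed, bases 2 to 8 counted from the 5′ end, so miRNAs with the same seed share many targets. The miR-34 family is known as a target of the transcription factor p53, which is activated by DNA damage, and its members restrain cell cycle genes. Hepatocytes are known for miR-122, the miRNA that fills most of the miRNA pool of the liver.

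The sequences below are the mature miRNAs behind the assays called at PTD 3 and their closest relatives on the array, taken from RefSeq (mouse build GRCm38.p6) and matched for 11 of 14 names. Capitals mark the seed. The first set holds the miR-34 and miR-449 assays. miR-34a lies at chr4:150068473-150068494 (plus strand). The arms of miR-34b lie at chr9:51103610-51103632 (5p) and chr9:51103574-51103595 (3p, both minus strand). miR-449a lies at chr13:113037549-113037570 and miR-449c at chr13:113036008-113036028 (both plus strand). miR-34c and miR-449b belong to the same set and are named only.
miR-34a: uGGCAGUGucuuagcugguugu
miR-34b-5p: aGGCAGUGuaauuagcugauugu
miR-449a: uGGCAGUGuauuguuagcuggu
miR-449c: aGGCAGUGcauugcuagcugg
miR-34b-3p: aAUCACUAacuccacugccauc
The first 4 share the seed GGCAGUG. miR-34b-3p comes from the same hairpin as miR-34b-5p but from its other arm, and has another seed.

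The second set holds miR-222 and miR-423-5p, which were called higher, with the partners that are processed from the same transcript or hairpin, and 2 miRNAs that were called lower. miR-221 lies at chrX:19146307-19146329 and miR-222 at chrX:19146901-19146923 (both minus strand). The arms of miR-423 lie at chr11:77078122-77078144 (5p) and chr11:77078086-77078108 (3p, both minus strand). miR-302c*, the 5p arm of miR-302c, lies at chr3:127545368-127545389 and miR-453 at chr12:109735669-109735692 (both plus strand). miR-684 was also called lower and is named only.
miR-222: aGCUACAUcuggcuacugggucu
miR-221: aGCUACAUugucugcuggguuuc
miR-423-5p: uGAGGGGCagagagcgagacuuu
miR-423-3p: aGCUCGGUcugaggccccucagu
miR-302c*: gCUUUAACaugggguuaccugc
miR-453: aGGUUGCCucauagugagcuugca
miR-221 and miR-222 share the seed GCUACAU. No other pair of this set shares one.

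Each array held assays for 376 miRNAs and 4 reference small RNAs. The threshold cycle (Ct) counts the PCR cycles a well needs to reach a set brightness, so a lower Ct stands for more RNA. Expression is given as -ΔCt, the mean Ct of the 4 reference RNAs minus the Ct of the miRNA on the same array, in log2 units, and a difference of 1 is a 2-fold change. Assays differ in efficiency, so levels are compared only between animals and not between miRNAs. The mean reference Ct lay between 21.1 and 22.6 over the 12 arrays, and 3 wells gave no Ct, 2 of them in replicate 3 of PTD 3. miR-122, the hepatocyte marker, had the lowest Ct of all miRNAs in 11 of the 12 arrays. In replicate 5 of PTD 3 a Ct of 9.78 for miR-876-3p came before it, while the lowest Ct of miR-876-3p on any other array of the series was 33.9. In whole liver, fewer cells of a type and less RNA per cell cannot be told apart.

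The arrays were run in 3 periods. The 5 arrays of PTD 3 shared a period with only 3 of the 7 DMSO arrays, those labelled day 1, and the other 4 DMSO arrays were run later, 2 in each later period. Each array held 2 reverse transcription control (RTC) wells, which read a template added to the reverse transcription and no miRNA. Within the shared period of 22 arrays, their difference in Ct stepped after the ninth array. It lay between -0.285 and -0.12 on the first 9 arrays and between -0.0261 and 0.211 on the next 13. Both wells read the same control, so this difference does not measure how well the reverse transcription worked. The PTD 3 group straddled this change, with replicates 1 and 2 before it and replicates 3, 4 and 5 after it. The median Ct of the whole array was 28.98 and 29.17 in replicates 1 and 2, and 29.77, 29.95 and 29.94 in replicates 3 to 5. Replicate 1 also stood apart in 1 reference RNA, with a Ct of 20.8 for snoRNA202 against 22.4 to 24 in the other 11 arrays. For replicate 3 the deposited values differ from those the study's own table lists for that animal in nearly all miRNAs. Whether the deposited array is that of the animal was not tested, and all results on replicates 3 to 5 include it.

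The first comparison asked which miRNAs differed at PTD 3 from the 7 DMSO arrays. 3 members of the miR-34 family, miR-34a, miR-34b-5p and miR-34c, rose in all 5 animals. miR-222, which is made together with miR-221 and is known to lower the cell cycle inhibitor p27, and miR-423-5p rose by less. miR-684, miR-302c* and miR-453 fell, with replicates 3 to 5 below replicates 1 and 2 in each. These 8 differentially expressed miRNAs (DEMs) had p under 0.01 in limma and more than 2-fold change, which is 2.13% of the 376 miRNAs tested, with 5 higher (1.33%) and 3 lower (0.798%). An unadjusted p under 0.05 was reached by 39 (10.4%), 19 higher (5.05%) and 20 lower (5.32%). With Benjamini-Hochberg adjustment at 0.05 only the 3 miR-34 members remained (0.798%). Over the 376 miRNAs the log2 fold changes had a median of 0.02. The split into 5 higher and 3 lower depended on the base, since with the median Ct of the array as the base the median was 0.31 and 16 of 18 DEMs were higher, without snoRNA202 all 10 were higher, and without snoRNA251 or snoRNA142 3 of 8 and 3 of 9 were higher. The count was 13 without replicate 2 of PTD 3, 5 without its replicate 3 or 5, and 4 without replicate 2 of the DMSO arrays labelled day 30.

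miR-34a was at 1.03, 1.08, 1.02, 2.35 and 0.91 in replicates 1 to 5 of PTD 3. In the DMSO arrays it ran from -1.79 to -0.66, with a median of -1.29. The lowest treated animal thus lay above the highest control, and replicate 4 lay 1.27 above the next treated animal. The difference of the means was 2.51 ± 0.34 (SE) on the log2 scale, a 5.71-fold rise, with a limma adjusted p of 0.00149. The exact permutation test gave p = 0.00126 (two-sided), the smallest that 5 against 7 arrays can give.

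miR-34b-5p was at -3.94, -3.86, -3.81, -2.76 and -4.72 in replicates 1 to 5, against a range of -6.56 to -5.67 and a median of -6.23 in DMSO. Again no value of the groups overlapped, with replicate 4 highest and replicate 5 lowest. The rise was 2.34 ± 0.35 (SE, limma adjusted p = 0.00201), or 5.06-fold.

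miR-34c, the partner of miR-34b on chromosome 9, was at -7.91, -7.28, -7.28, -6.11 and -8.02 in replicates 1 to 5. The DMSO arrays ran from -9.78 to -8.54 with a median of -9.36. Replicate 4 was highest and replicate 5 lowest, as for miR-34b-5p, and the groups did not overlap. Over all miRNAs replicate 4 was also the highest, with a median of 0.58 relative to the 7 DMSO arrays. The rise was 1.87 ± 0.38 (SE, limma adjusted p = 0.0309), or 3.66-fold. Over all 376 miRNAs, 6 (1.6%) had every PTD 3 array above every DMSO array, and none had every PTD 3 array below. The other 3 were miR-30c, miR-339-5p and miR-423-3p, which differed by less than 2-fold and are named with their values known.

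None of the other 4 assays of the set passed the thresholds against the 7 DMSO arrays. miR-34b-3p, the other arm of the miR-34b hairpin, was at -8.68, -9.23, -9.85, -7.94 and -9.93, with a difference of -0.71 ± 0.39 (SE) and an exact permutation p of 0.0909. miR-449a, which shares the miR-34 seed, was at -11.35, -10.64, -10.93, -9.41 and -11.40, inside the DMSO range of -14.13 to -10.19 except for replicate 4. Its difference was 1.21 ± 0.63 (SE) and its exact permutation p 0.116. miR-449b (0.24 ± 0.52, SE) and miR-449c (-0.18 ± 0.49, SE) differed by less than their standard errors. So 3 of the 7 assays rose and none fell, with a median of 1.21, beside 5 of 376 higher (1.33%) and a median of 0.02 over all miRNAs.

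**Figure D1:**
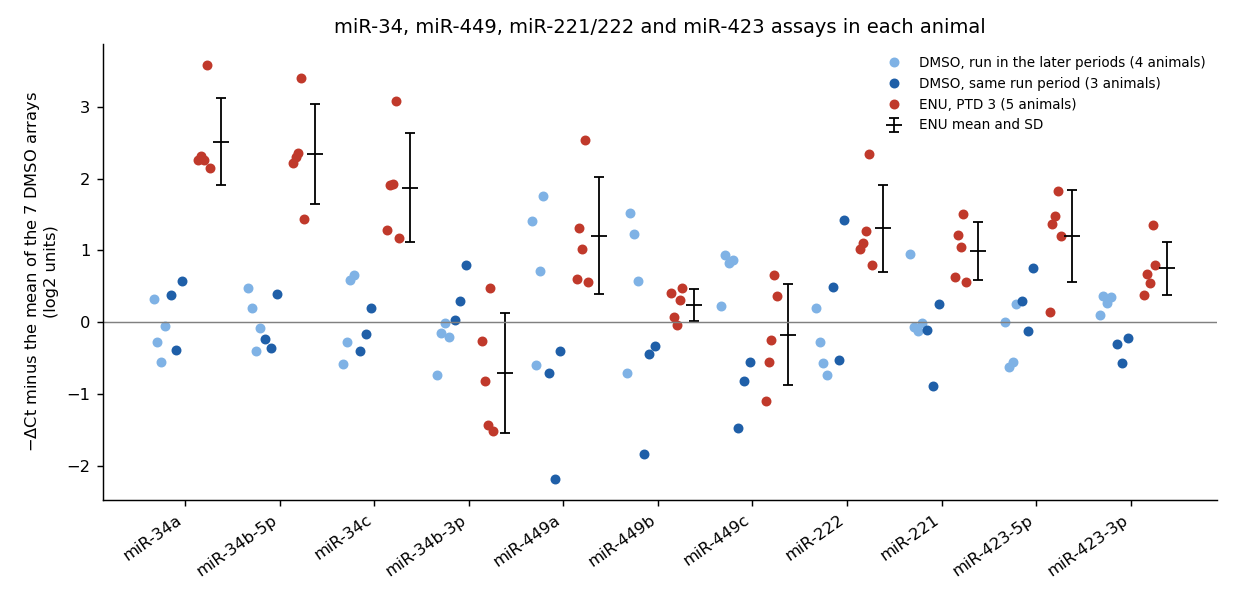
-ΔCt of 11 assays in each animal, minus the mean of the 7 DMSO arrays (log2 units). Red points are the 5 PTD 3 animals with their mean and SD beside them, dark blue the 3 DMSO animals of the same run period and light blue the other 4. For miR-34a, miR-34b-5p, miR-34c and miR-423-3p every red point lies above every blue point.

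miR-222 was at -4.53, -4.46, -4.28, -3.21 and -4.75 at PTD 3 and from -6.29 to -4.13 in DMSO. Replicates 1, 2, 3 and 5 lay below the highest DMSO array, so the groups overlapped. The rise was 1.31 ± 0.42 (SE), 2.47-fold, with a limma adjusted p of 0.351, and the call held in 3 of the 12 fits that left out 1 array. miR-221, its partner with the same seed, was at -3.14, -2.56, -2.73, -2.26 and -3.21, with a difference of 0.99 ± 0.34 (SE) that missed the thresholds (limma adjusted p = 0.351). Against the 3 DMSO arrays of the same run period the order of the pair turned round, with 0.84 for miR-222 and 1.24 for miR-221.

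miR-423-5p was at -5.98, -4.75, -4.65, -4.29 and -4.91, against -6.74 to -5.37 in DMSO. Replicate 1 was near the DMSO median of -6.12 and the other 4 animals were above all controls. The rise was 1.20 ± 0.36 (SE, limma adjusted p = 0.305), or 2.30-fold. The call was lost without replicate 2, 3, 4 or 5 of PTD 3 or replicate 2 or 3 of the DMSO arrays labelled day 30, and the difference was 0.90 in the same run period and 0.44 with only the arrays of that period that have a negative RTC difference. miR-423-3p, the other arm of this hairpin, was higher than in every DMSO array in all 5 animals, at -4.10, -3.81, -3.93, -3.13 and -3.68 against -5.04 to -4.11, but its difference of 0.75 was below the fold threshold.

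The 3 miRNAs called lower had a different pattern among the animals. miR-302c*, from a cluster known from embryonic stem cells, was at -5.57 and -5.09 in replicates 1 and 2 and at -9.52, -8.05 and -9.14 in replicates 3 to 5, with -5.60 to -4.22 in DMSO. The first 2 animals lay in the DMSO range and the other 3 lay below it. The difference of the means was -2.33 ± 0.71 (SE, limma adjusted p = 0.305).

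miR-684 was at -9.35 and -9.17 in replicates 1 and 2 and at -14.86, -13.13 and -12.95 in replicates 3 to 5. In DMSO it ran from -12.09 to -6.70, and its 2 lowest values, -10.53 and -12.09, came from the 2 DMSO arrays of the third run period, whose RTC differences (0.283 and 0.295) were positive as well. The difference was -3.42 ± 1.14 (SE, limma adjusted p = 0.351).

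miR-453, from the imprinted Dlk1-Dio3 cluster, was at -8.07 and -7.24 in replicates 1 and 2 and at -10.85, -8.52 and -9.18 in replicates 3 to 5, against -7.83 to -6.32 in DMSO. Here replicate 1 also lay below the controls, and the difference was -1.89 ± 0.53 (SE, limma adjusted p = 0.285). Of the 12 fits that left out 1 array, the call held in 12 for miR-453, in 7 for miR-302c* and in 4 for miR-684. For the latter pair it was lost without replicate 3, 4 or 5 of PTD 3, and without replicate 1 or 2 of the DMSO arrays labelled day 30. For miR-684 it was also lost without replicate 1, 2 or 3 of those labelled day 1. With the replicate number as a block miR-684 stayed a DEM, but miR-453 and miR-302c* did not.

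In the order of running, miR-302c* was lower from the same array on at which the RTC difference stepped, in animals of PTD 3 and of later days. It lay between -5.61 and -4.53 on the first 9 arrays of the period, which held DMSO, PTD 1 and PTD 3 animals, and between -10.18 and -6.91 on the next 13, which held PTD 3, PTD 7 and PTD 15 animals. miR-684 lay between -9.35 and -5.47 on the first 9 and between -15.01 and -10.78 on the 12 later arrays with a Ct. Neither overlapped, but replicates 1 and 2 of PTD 3 (-9.35 and -9.17) were already below the DMSO and PTD 1 arrays among the first 9 for miR-684, whose PTD 1 arrays went down to -8.10. miR-453 did overlap, with -8.07 to -5.77 before and -10.85 to -7.26 after. miR-34b-5p overlapped as well, with -6.52 to -3.86 before and -4.72 to -2.76 after, and replicate 3 (-3.81) was next to replicates 1 and 2. The 2 DMSO arrays of the third run period, which had a positive RTC difference too, were at -4.97 and -5.57 for miR-302c* and at -6.61 and -7.18 for miR-453, inside the range of the other DMSO arrays.

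With only the 7 arrays that have a negative RTC difference, 2 of PTD 3 and 5 of DMSO, the difference was -0.23 ± 0.55 (SE) for miR-302c*, -0.77 ± 0.57 for miR-453 and -1.93 ± 0.53 for miR-684, and of the 3 only miR-684 remained a DEM. With the RTC difference as a covariate over all 12 arrays, all 3 remained DEMs (-2.10, -1.78 and -2.77). miR-34a, miR-34b-5p and miR-34c were 2.17, 2.16 and 1.84 higher with the 7 arrays, and all 3 remained DEMs. The day on which an animal was killed and the place of its array in the run order went together across this series, so for the falls ENU and the run order cannot be told apart. Within the shared period every DMSO array ran before every PTD 3 array, so there the same holds for the rises. Within PTD 3, the animal and the run order cannot be told apart.

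**Figure D2:**
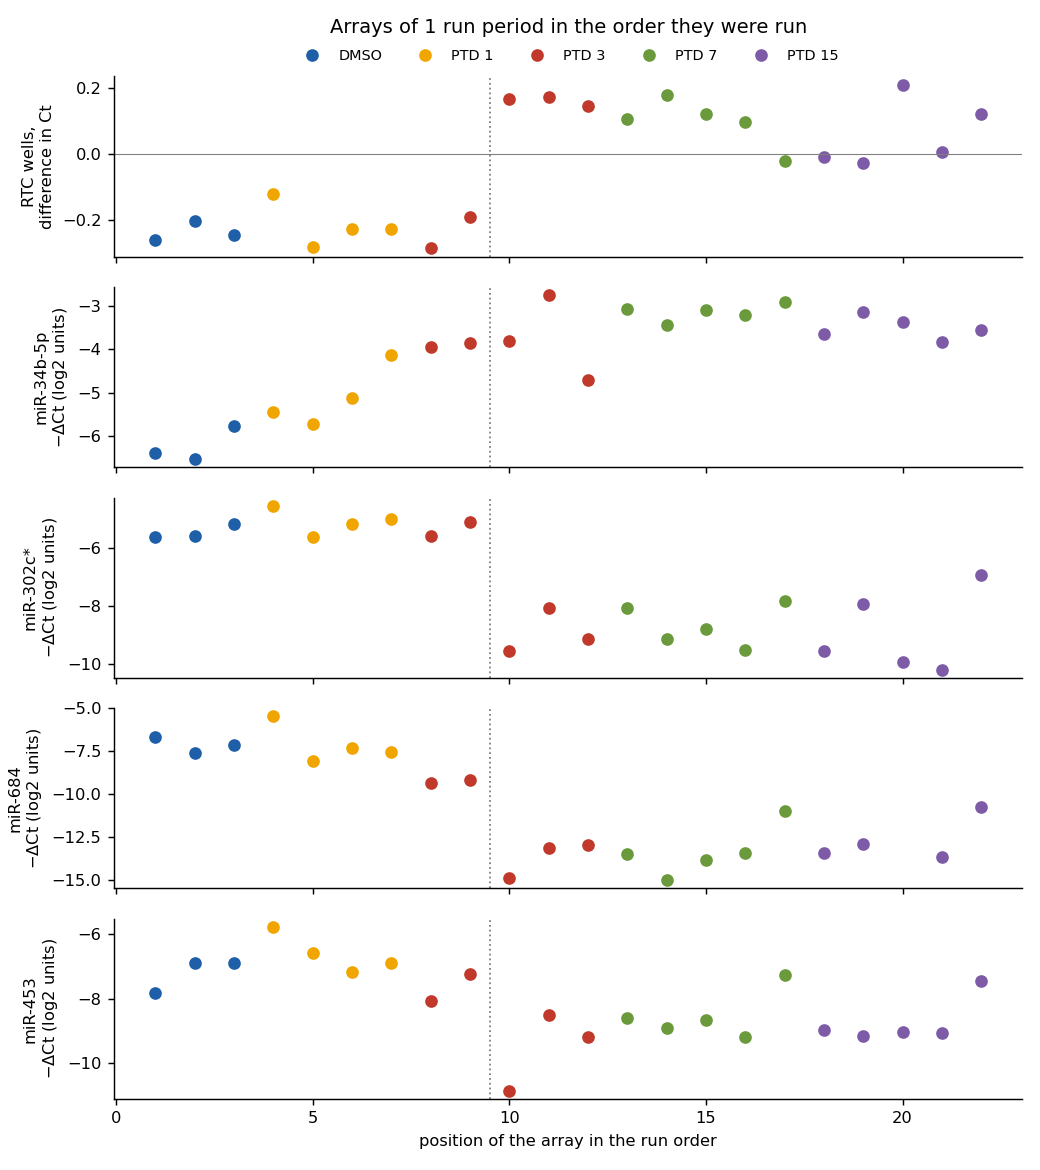
The 22 arrays of the shared run period in the order they were run, coloured by group. The top panel gives the difference in Ct of the 2 RTC wells and the others the -ΔCt (log2 units) of 4 miRNAs, with a dotted line after the ninth array. miR-302c* and miR-684 lie lower on every measured array right of the line than on any left of it, and the 5 red PTD 3 points fall on both sides.

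The same division of the 5 animals was found in a minority of the assays. In 76 of the 376 miRNAs (20.2%) replicates 3 to 5 all lay below replicates 1 and 2, and in 35 (9.31%) they all lay above them, with a median gap of 0.10 over all miRNAs. The gap was over 2 log2 units for 31 of the 76 and for 4 of the 35. The lower assays were mostly late ones, with 48 of 170 among miRNAs with a mean Ct above 30, 24 of 120 with a mean Ct above 25 and up to 30, and 4 of 86 with a mean Ct of at most 25.

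The largest gaps were for miR-883b-5p, from a cluster on chromosome X that is expressed in testis, with -8.49 and -13.4 as the means of the 2 earlier and the 3 later animals. miR-135b followed among the assays measured in all 5 animals, with -7.67 and -11.7, after miR-684. The 2 DMSO arrays with a positive RTC difference were also lower than the other 5 for both, at -11.2 against -8.31 and -9.44 against -7.39. Both assays were picked here with their values known.

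The erythroid miRNAs miR-144, miR-451 and miR-486, which mark the blood held in the tissue, were all lower in replicates 3 to 5, as were 76 of all 376 miRNAs (20.2%). miR-451 was at 3.37, 3.74, 3.06, 2.24 and 2.01 in replicates 1 to 5, against 2.08 to 3.42 in DMSO. The mean level of the 3 markers ran from -3.76 to -2.19 at PTD 3 and from -3.58 to -3.05 in DMSO. Their median gap between the 2 sets of animals was -1.13, beside 0.10 for all miRNAs, and whether the blood held in the sample has a part in the other gaps was not tested. None of the 3 passed the thresholds against the 7 DMSO arrays.

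Among assays whose mean Ct was 30 or less, the 6 with the largest SD among the PTD 3 animals were miR-302c*, miR-369-5p, miR-489, miR-758, miR-431 and miR-142-5p. In all 6 the 3 later animals were lower than the 2 earlier ones, beside 76 of 376 miRNAs (20.2%) overall. The SD that chose them was taken over the same 5 arrays, so this is a description only. miR-369-5p was at -7.17, -7.09, -10.58, -9.67 and -11.48 and had a difference from DMSO of -2.11 ± 0.74 (SE, limma adjusted p = 0.374). miR-142-5p, a miRNA of blood cells, was at -4.56, -3.25, -6.41, -6.18 and -6.55 and had a difference of -0.15 ± 0.62 (SE). Its other arm, miR-142-3p, was at 0.07, 0.39, -0.56, -0.62 and -0.76 and so spanned a narrower range in the same order of the 2 sets. The immune cell list as a whole was not lower, since of its 6 markers these 2 lay below in replicates 3 to 5, miR-146a lay above (by 0.78) and the other 3 overlapped, with a median gap of 0.03.

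Replicate 1 stood apart in another way. let-7b and let-7c, abundant members of a family that restrains growth genes, were at 1.38 and 1.45 in replicate 1 and between 3.12 and 4.19 in the other 4 animals. Its low snoRNA202 Ct lowers every -ΔCt of that array against the other animals. Without snoRNA202 in the base, replicate 1 was at 1.63 for let-7b and 1.70 for let-7c, and the other 4 animals lay between 2.62 and 3.73. With the median Ct as the base replicate 1 stood apart as well, at 8.80 for let-7b and 8.87 for let-7c, with the other 4 animals between 10.90 and 11.48. Relative to the 7 DMSO arrays, the median over all miRNAs was -0.27, 0.44, -0.24, 0.58 and -0.04 in replicates 1 to 5. Replicate 4 had 104 miRNAs above all DMSO arrays and replicate 2 had 86, against 17 to 21 in the other 3 animals. Below all DMSO arrays were 43, 13, 91, 34 and 68 miRNAs in replicates 1 to 5.

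The second question was whether the 5 animals varied more among themselves than the DMSO animals. The distance of each array from the mean of the others of its group, as the root mean square over the 373 miRNAs measured on all 12 arrays, averaged 1.28 among the 5 PTD 3 arrays (SD 0.24). Among the 7 DMSO arrays it averaged 1.07 (SD 0.182). The difference of 0.203 was within the spread (exact permutation test, two-sided p = 0.119). Replicate 5 was farthest at 1.69, and 1 well made that value. Without the miR-876-3p well its distance was 1.04, the difference of the groups 0.0338 and the exact p 0.702. With all wells the difference was 0.296 with the median Ct as the base (exact p = 0.0404), 0.476 against the same-period DMSO arrays (exact p = 0.0179), and -0.0518 over assays whose mean Ct was 30 or less (exact p = 0.549). The median SD of a miRNA was 0.67 among the PTD 3 animals, 0.832 among the 7 DMSO animals and 0.442 among the 3 DMSO animals of the same run period. At PTD 3 it was larger than in the 7 DMSO animals for 160 miRNAs of 376. The direction turned with the median Ct as the base, where the median SD was 0.639 at PTD 3 and 0.615 in the 7 DMSO animals and it was larger at PTD 3 for 201 miRNAs.

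The deviations of the 5 animals from the mean of the same-period DMSO arrays can be set against each other across miRNAs, which are not independent and share the DMSO mean. Pearson's r was 0.792, 0.771 and 0.736 for the 3 pairs among replicates 3 to 5. For the other 7 pairs it lay between 0.238 and 0.454, and for replicates 1 and 2 it was 0.279.

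Distances from the neighbouring days gave the same division. Replicates 1 and 2 were nearer to the mean of PTD 1 (0.767 and 1.18) than to that of PTD 7 (1.37 and 1.35). Replicates 3, 4 and 5 were nearer to PTD 7 (0.942, 0.814 and 0.82) than to PTD 1 (1.38, 1.48 and 1.34). The PTD 1 arrays of this period ran just before and the PTD 7 arrays just after those of PTD 3, so the nearness to a day and to a place in the run order cannot be told apart.

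**Figure D3:**
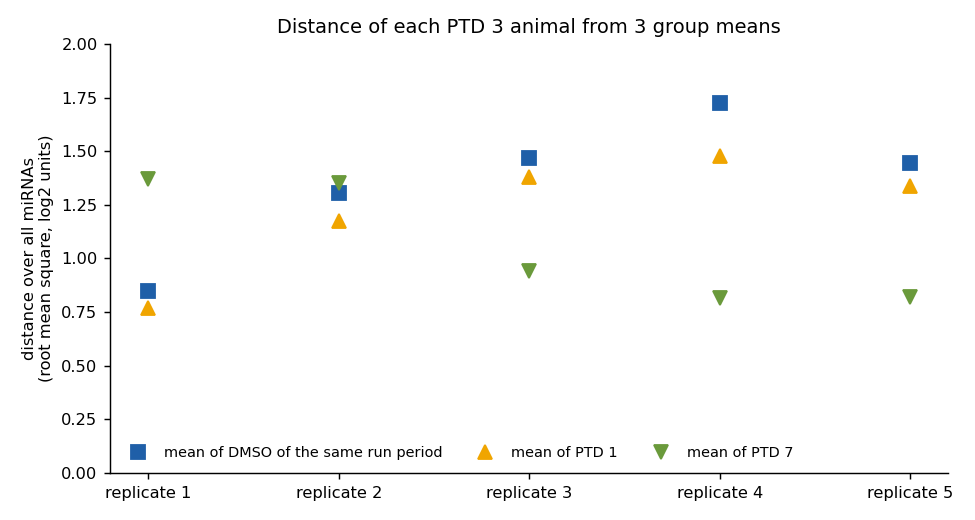
Distance of each PTD 3 animal from the mean profile of the same-period DMSO, PTD 1 and PTD 7 arrays, as the root mean square over miRNAs (log2 units), with the miR-876-3p well of replicate 5 left out. Replicates 3 to 5 lie between 0.814 and 0.942 from the PTD 7 mean and at least 1.34 from the PTD 1 mean, and replicates 1 and 2 are nearer to the PTD 1 mean.

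The third comparison set PTD 3 against the 3 DMSO arrays of the same run period, which are those labelled day 1. The other 4 are labelled day 30, so among the controls the run period and the day cannot be told apart. There 286 of the 376 miRNAs had a higher mean at PTD 3 and 90 a lower one, with a median log2 fold change of 0.63, and 30 miRNAs (7.98%) were called, 29 of them higher (7.71%). Only miR-202-5p passed the Benjamini-Hochberg adjustment (0.266%), while 100 (26.6%) had an unadjusted p under 0.05, 98 of them higher (26.1%). The number that passed the adjustment depended on the base and the arrays. It was 96 without snoRNA202, 43 without replicate 1 of PTD 3 and 0 with the median Ct as the base. Against the 4 DMSO arrays labelled day 30 the direction was the opposite, with a median of -0.50 and 23 DEMs, 5 higher and 18 lower (28 with the replicate number as a block, 7 higher and 21 lower). With the array's own median Ct as the base in place of the reference RNAs, 18 were called, 16 of them higher, and the median was 0.41. The count was 60 without replicate 1 of PTD 3, 17 without its replicate 5, and 13 or 19 without replicate 1 or 3 of the DMSO arrays. 4 of the 8 DEMs found with all controls were among the 30, and they were miR-34a, miR-34b-5p, miR-34c and miR-684.

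All 3 miR-34 members were DEMs within the run period too. The log2 fold change was 2.33 for miR-34a, 2.41 for miR-34b-5p and 2.00 for miR-34c, with limma adjusted p of 0.0536, 0.0536 and 0.0668. With the median Ct as the base it was 2.10, 2.18 and 1.78, where the same base gave 2.81, 2.63 and 2.17 against all 7 DMSO arrays, and the difference between these comparisons was not tested. The same-period calls held in 19 of 22 alternatives for miR-34c and in 21 of 22 for each of the other two. Each had its 5 values above the 3 DMSO values, as had 78 of the 376 miRNAs (20.7%) here. The 4 DMSO arrays run after PTD 3 lay between -1.79 and -0.92 for miR-34a and between -6.56 and -5.67 for miR-34b-5p, below every PTD 3 array.

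miR-449a joined them in this comparison, at 2.30 (limma adjusted p = 0.0786), where the 3 DMSO arrays were at -12.65, -14.13 and -12.35. The 2 DMSO arrays of the third run period had a mean of -10.71, inside the range of the PTD 3 animals. Over the 31 alternatives of the comparison with all 7 controls, the difference of miR-449a ran from 0.38 to 2.30, and it was called in 2. miR-202-5p, a miRNA of the gonads, gave the largest rise among the miRNAs called, with 4.64 ± 0.70 (SE, limma adjusted p = 0.0282). It was at -11.61, -11.71, -10.60, -9.06 and -11.42 at PTD 3 and at -14.55, -16.75 and -15.24 in the same-period DMSO arrays, but at -13.62 to -10.78 in the other 4 DMSO arrays. Its mean Ct was 34.2, a late assay. miR-294* and miR-582-5p, with 2.56 and 2.35, were also late assays (mean Ct 32.7 and 32.5). They differed by 0.82 and 1.36 from all 7 controls, where neither was a DEM, although miR-582-5p was one with the median Ct as the base (1.66). miR-684 was the only one called lower, at -4.74.

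**Figure D4:**
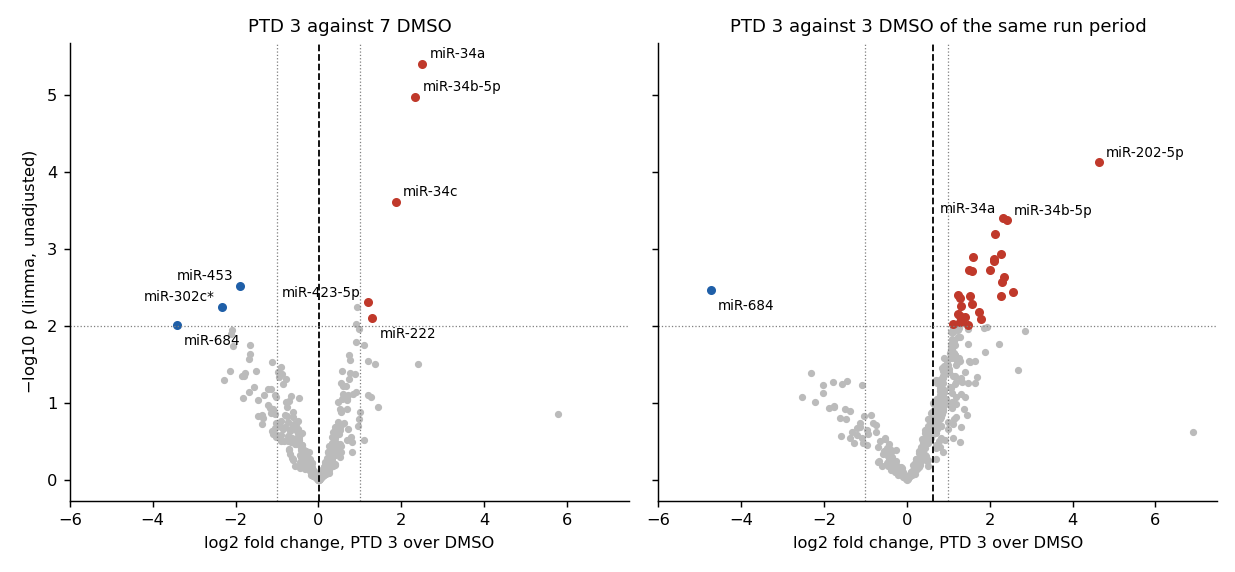
Log2 fold change of PTD 3 over DMSO (x) and -log10 of the unadjusted limma p (y) for 376 miRNAs, with all 7 DMSO arrays (left) and with the 3 of the same run period (right). Red and blue points passed p under 0.01 and a 2-fold change (dotted lines), and the dashed line is the median of all miRNAs, 0.02 on the left and 0.63 on the right.

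The other families and marker lists are described by their counts and medians. With all 7 controls, the lists of hepatocyte, immune cell, erythroid, endothelial, stromal, epithelial and bile duct, muscle, and neural and endocrine markers held no DEM, and their medians lay between -0.26 and 0.40, beside 0.02 for all miRNAs. In the same run period the medians of these lists lay between 0.12 and 1.48, beside 0.63 for all, and hepatocyte markers (1.08) and endothelial markers (1.19) held 1 DEM each, where 30 of all 376 (7.98%) were called, 29 higher (7.71%). miR-122 differed by -0.03 ± 0.40 (SE) and the other hepatocyte markers miR-148a, miR-192 and miR-194 by 0.17, 0.41 and 0.04. miR-192, miR-194 and miR-215, which p53 also controls in some cells, had a median of 0.07 and no call. In the same run period they had a median of 1.28, and miR-192 was called (1.28), while the values of the 4 later DMSO arrays, 5.10 to 5.29 for miR-192, lay in the range of the PTD 3 animals (4.34 to 5.43).

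The 12 assays of the miR-17 cluster and its paralogous clusters, which promote proliferation, held no DEM in either comparison. The difference from the 7 DMSO arrays was above 0 for 11 of the 12 and for 195 of all 376 miRNAs, with medians of 0.39 and 0.02, and the median was 0.93 within the run period beside 0.63 for all miRNAs. The 3 miR-29 members, which target collagens, had a median of 0.68 and no DEM, and within the run period 2 of the 3 were called, miR-29a (1.60) and miR-29c (1.24), beside 29 of 376 called higher (7.71%). The 9 let-7 and miR-98 assays, the 5 of miR-15 and miR-16, the 5 of miR-30 and the 5 of miR-23, miR-27 and miR-24 held no DEM in either comparison, with medians of 0.12, 0.04, 0.02 and -0.02 against all 7. miR-30c, at 2.26, 2.58, 2.54, 2.93 and 2.48 against 1.78 to 2.23 in DMSO, lay above every control, but by only 0.57 ± 0.25 (SE).

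The lists of 4 genomic clusters had medians below 0 with the reference RNAs as the base. The 13 assays of the miR-290 and miR-302 pluripotency clusters had a median of -0.62 with 1 DEM, miR-302c*, and the 17 of the X-linked testis cluster had -0.68 with none. The 44 of the Dlk1-Dio3 imprinted cluster had -0.18 with 1 DEM, miR-453, and the 16 of the Sfmbt2 intron cluster -0.07 with none. Over all miRNAs 8 of 376 (2.13%) were DEMs, 3 of them lower (0.798%). With the median Ct as the base the medians were -0.32, -0.39, 0.11 and 0.22 in the same order, each below the 0.31 of all miRNAs, so those of the Dlk1-Dio3 and Sfmbt2 lists turned. Within the run period the medians of all 4 lists turned to 0.29, 0.48, 0.18 and 0.54, each below the 0.63 of all miRNAs. These are mostly late assays, and miRNAs with a mean Ct above 30 had a median of -0.29 against the 7 DMSO, while those with a mean Ct of at most 25 had 0.17.

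**Figure D5:**
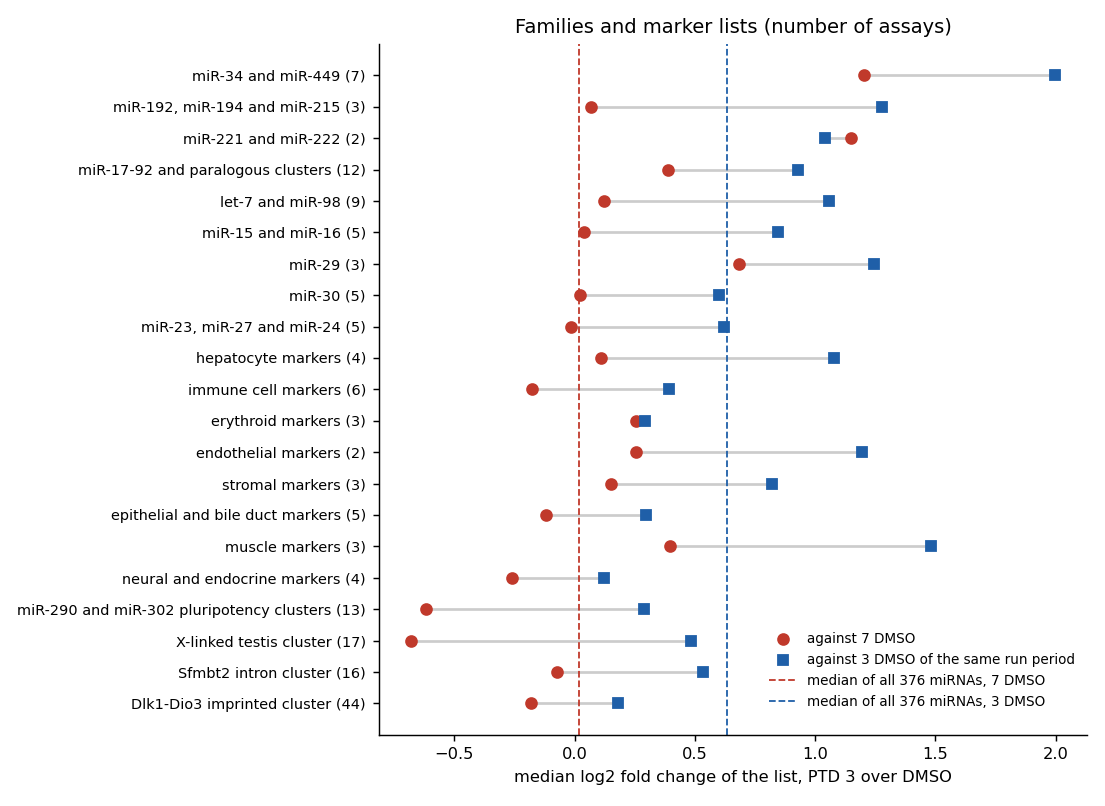
Median log2 fold change of each family or marker list at PTD 3, against all 7 DMSO arrays (red circles) and against the 3 of the same run period (blue squares), with the number of assays in brackets. Dashed lines are the medians of all 376 miRNAs, and only the miR-34 and miR-449 list and the miR-221 and miR-222 list lie above 1 in both.

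Over the whole profile, the distance between the mean of the PTD 3 arrays and the mean of the 7 DMSO arrays was 0.792 log2 units per miRNA (exact permutation test, p = 0.129). Against the 3 DMSO arrays of the same run period it was 1.12 (exact p = 0.0536, smallest possible 0.0179). Both distances include the miR-876-3p well of replicate 5. Without it the distance from the 7 DMSO arrays was 0.734 (exact p = 0.157).

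Against the neighbouring days, 11 miRNAs (2.93%) differed between PTD 3 and PTD 1, 9 of them higher at PTD 3 (2.39%), and 4 (1.06%) between PTD 3 and PTD 7, 1 of them higher (0.266%). Over all 376 miRNAs the median log2 fold change was 0.47 against PTD 1 and -0.11 against PTD 7. Replicate 4 of PTD 1 was run in the second period, and with the other 4 PTD 1 arrays 12 DEMs were found, 7 higher and 5 lower. The median Ct as the base gave 9 higher and 8 lower, with a median of 0.40 over all miRNAs. In limma, none passed the adjustment in either comparison, while 56 (14.9%) and 18 (4.79%) had an unadjusted p under 0.05, with 16 of the 18 lower than at PTD 7 (4.26%). Between PTD 1 and PTD 3, miR-34a rose by a further 1.27 (exact permutation p = 0.00794, two-sided), beside the median of 0.47 for all miRNAs. Its PTD 1 range of -0.49 to 0.78 lay below every PTD 3 animal, and 8 of the 376 miRNAs (2.13%) had every PTD 3 array above every PTD 1 array. miR-34b-5p and miR-34c were 1.18 and 1.25 higher than at PTD 1 (exact permutation p = 0.0238 and 0.0159), and only replicate 5 fell inside the PTD 1 range.

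At PTD 7, miR-34b-5p lay between -3.45 and -2.91 and miR-34c between -7.02 and -6.67. The 5 PTD 3 animals were spread more widely on both sides of these, and the differences of -0.67 and -0.45 were within the spread (exact p = 0.0635 and 0.23). For miR-34a 1 PTD 7 array was at -2.51 and the median of that day was 1.56, above all PTD 3 animals but replicate 4. miR-684, called lower than at PTD 1 (-4.27), was 1.47 higher than at PTD 7, and miR-302c* 1.18 higher. Both had PTD 7 arrays that ran only after the change of the RTC difference.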

How the data were processed

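Small RNA of each liver was reverse transcribed and read on a 384-well SYBR Green PCR array by the authors. The deposited values are Ct (unit: score) that SDS 2.3 gave at a threshold line of 0.15 over 40 cycles, with 1 array per mouse. Wells were named from the array layout of the study. -ΔCt was computed from the 4 reference RNAs (U6, snoRNA142, snoRNA202 and snoRNA251), as their mean Ct minus the Ct of the miRNA, and undetermined wells were left missing. The deposited Ct of replicate 3 of PTD 3 do not give the ΔCt that the study's own table lists for that animal. The values differ in nearly all miRNAs, and the deposited Ct were used. The labels place 3 DMSO mice on day 1 and 4 on day 30, where the study's methods have the numbers the other way round, and the labels were followed.

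Groups were compared over all 376 miRNAs with limma 3.58.1 (R 4.3.3), calling p under 0.01 and more than 2-fold change, with Benjamini-Hochberg adjusted p beside it. Single values were compared with exact permutation tests (numpy 2.4.6), two-sided for miRNAs. The methods' t-test was computed with scipy 1.17.1. The precision is limited by the number of arrays. The fits were tested on simulated data. Run periods are separated by gaps of over 14 days.

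Named are the miRNAs called against the 7 DMSO arrays, up to 6 with the largest rise and fall among those called in the same run period, the members of the miR-34 and miR-449, miR-192, miR-194 and miR-215, and miR-221 and miR-222 lists, the 6 with the largest SD at PTD 3 at a mean Ct of at most 30, and up to 4 members of each other list. miR-423-3p, miR-339-5p, miR-883b-5p, miR-135b, miR-142-3p, miR-876-3p, let-7b and let-7c were described after their values were seen. The members and the 21 lists were chosen with earlier results of these data known.

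Alternatives were other bases, caps and filters on Ct, each array left out, a replicate block, 1 fit of all groups, subsets of DMSO or of arrays by the RTC wells, and the methods' t-test. Leaving out wells with a Ct under 12, leaving out snoRNA202 of replicate 1 alone, the arrays of the same run period with a negative RTC difference, the RTC covariate in the same-period comparison, and the replicate block with the DMSO arrays labelled day 30 were chosen after seeing the data.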

Additional observations from a re-analysis of the deposited data

Results flagged for a closer look

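Of 78 groups of values checked for a single array far from the others, 4 were picked out, and chance picks about 1 in 20. miR-34a was at 2.349 in replicate 4 of PTD 3, 1.271 above the next animal, on an array with a median of 0.58 over all miRNAs relative to DMSO. miR-876-3p was at 12.39 in replicate 5, 24.54 above the next. let-7c was at 1.447 in replicate 1, 1.999 below the next. The Ct of snoRNA202 was 20.78 in replicate 1, 2.48 below the next. The cause of these values was not tested.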

How the results depend on the processing

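miR-34a and miR-34b-5p stayed DEMs in 32 of 32 alternatives and miR-34c in 31 of 31. miR-453 did in 26 of 32, miR-423-5p in 19 of 32, miR-302c* in 18 of 32, miR-222 in 15 of 32 and miR-684 in 15 of 31. miR-302c* turned to 0.13 with only the arrays of the same run period that have a negative RTC difference. The 8 DEMs against 7 DMSO became 18 with the median Ct as the base, 18 in 1 fit of all groups, 30 with the DMSO arrays labelled day 1, 23 with those labelled day 30 (18 lower), 4 with the arrays of negative RTC difference, 19 with those of the same run period, 5 by the methods' t-test on either ΔCt or 2 to the power of -ΔCt, and 3 after adjustment. With 1 array left out they ranged from 4 to 13.

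The 30 DEMs of the same run period became 18 with the median Ct as the base, 16, 83 and 16 without snoRNA251, snoRNA202 and snoRNA142, 48 without snoRNA202 of replicate 1 alone, 8 with the RTC covariate, 8 by the methods' t-test on 2 to the power of -ΔCt and 1 after adjustment. With 1 array left out they ranged from 13 to 60. The 1 after adjustment became 96 without snoRNA202, 10 without snoRNA202 of replicate 1 alone and 43 without replicate 1 of PTD 3. It became 43 at a mean Ct of at most 30 and 0 with the median Ct as the base.

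The 11 DEMs against PTD 1 became 17 with the median Ct as the base, 6 without snoRNA251, 7 without snoRNA142, 23 in 1 fit of all groups, 7 and 5 by the methods' t-test and, in limma, 0 after adjustment. With 1 array left out they ranged from 6 to 19. The 4 against PTD 7 became 1 without snoRNA202, 1 in 1 fit of all groups, 1 and 1 by the methods' t-test and, in limma, 0 after adjustment (18 at an unadjusted p under 0.05). With 1 array left out they ranged from 0 to 12.

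The difference in spread was 0.296 with the median Ct as the base, 0.298 without snoRNA251, 0.476 and 0.280 with the DMSO arrays labelled day 1 and day 30, and -0.0518 at a mean Ct of at most 30. With 1 array left out it ranged from 0.0940 to 0.305. The distance between the group means kept its side of the threshold in all 25 alternatives. The cause of these changes was not tested.

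The correlations of same-numbered deviations with PTD 3 ran from 0.231 to 0.481 for the 4 DMSO arrays labelled day 30, from -0.130 to 0.0150 for the 3 labelled day 1, from -0.158 to 0.380 for PTD 1 and from -0.121 to 0.116 for PTD 7, so every pair was above 0 only for day 30. With the replicate number as a block the DEMs were 5 against 7 DMSO, where miR-302c*, miR-222, miR-453 and miR-423-5p were no longer called, 28 against the DMSO arrays labelled day 30, 16 in the same run period, 12 against PTD 1 and 3 against PTD 7.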
